A study of Mus musculus with 6 samples.

Results

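The genes described here encode 10 transcription factors of the airway epithelium: Sox2, the homeodomain factor Nkx2-1, the forkhead factors Foxa1 and Foxa2, the grainyhead-like factors Grhl1, Grhl2 and Grhl3, and the epithelial Ets factors Elf3, Elf5 and Ehf. They were chosen by symbol, and every probe set that the array annotation assigns to exactly 1 of these symbols was taken, which gave 17 of 45037 non-control probe sets and 10 of 18193 genes. Of the 10 genes, 7 have 1 probe set, and Grhl2, Elf5 and Ehf have more. The arrays hold RNA from tracheal epithelium of male C57Bl/6 mice, aged 8 to 12 weeks in the study's injury protocol. The 48 hpi group consists of 3 pools taken 48 h after the mice had breathed SO2 at 500 ppm for 4 h, an injury that removes luminal cells and leaves basal cells to rebuild the layer. The control group consists of 3 pools of uninjured epithelium. Each pool was made from 4 tracheas, and both groups were peeled after protease treatment and depleted of CD45+ leukocytes before RNA extraction, so that all values are averages over the epithelial cell types of 4 animals. The injured epithelium was sampled at a single time.

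Sox2 is known to set the identity of the conducting airways during lung development and is kept in the adult airway, where it is needed for basal cell function. Nkx2-1 marks the lung and tracheal lineage from its origin in the foregut, and Foxa1 and Foxa2 act with it on genes of secretory cells. Grainyhead-like factors bind genes of cell junctions and of the epidermal barrier, and Elf3, Elf5 and Ehf form a branch of the Ets family that is mostly confined to epithelia.

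Elf5 fell and Grhl3 rose at 48 hpi, and these were the changes of greatest size among the 10 genes. Elf5 was lower by 1.76 on the log2 scale, or 3.39-fold higher in control, while Grhl3 was higher by 1.42, or 2.67-fold. Smaller falls were called for Grhl1, Grhl2 and Ehf, and these calls were lost, with Grhl1 turning to a change of 0.07, when the arrays were set to equal hybridization controls (spiked-in RNAs). The factors that define the airway lineage, Sox2, Nkx2-1, Foxa1 and Foxa2, were not called, and neither was Elf3. Foxa2 narrowly missed the call with a change of −0.77 (adjusted p = 0.0598 from limma), and the probe set of Nkx2-1 is dim. Values are log2 expression after robust multi-chip analysis (RMA), changes are 48 hpi minus control with the standard error (SE), and a probe set was called at an adjusted p below 0.05 (limma, Benjamini-Hochberg over all 45037 probe sets).

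By the brightest probe set of each gene, 4 of the 10 genes were lower and 1 was higher, whereas over all 18193 genes 16.1% were lower and 18.4% were higher, 34.5% in all. Over probe sets, 7 of 17 were lower and 1 was higher, beside 13.9% lower and 14.5% higher of all probe sets, 28.4% in all. Among the 24086 probe sets that exceeded background in at least 1 group, as 16 of the 17 did, 21.3% were lower and 25.1% were higher. The change was negative for 16 of the 17, beside 54.6% of all probe sets. The arrays of the groups did not overlap for 9 of the 17 with the 48 hpi arrays below, and for 1 with the 48 hpi arrays above, beside 22.4% and 21% of all probe sets. The median change of the 10 genes was −0.27, and that of all genes was −0.02. After that shift, which gave each array the same mean hybridization control signal, the median change of all probe sets was 0.32 instead of −0.03, and only Elf5 of the 10 genes was still called lower. The balance of calls over all probe sets was then 8064 higher and 1480 lower, against 6512 and 6267 without the shift and 8068 and 4522 with a common median. The same shift is applied to every probe set of an array, so it also alters the spread between pools. A change of −0.50 had adjusted p = 0.0201 for Ehf without the shift, and 0.125 for Foxp2 with it (limma). Whether a call was lost through the spread or through a smaller change was not tested. With 3 pools per group, 0.1 is the smallest two-sided p an exact permutation test can reach, and it was reached for the 10 probe sets whose groups did not overlap.

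**Figure D1:**
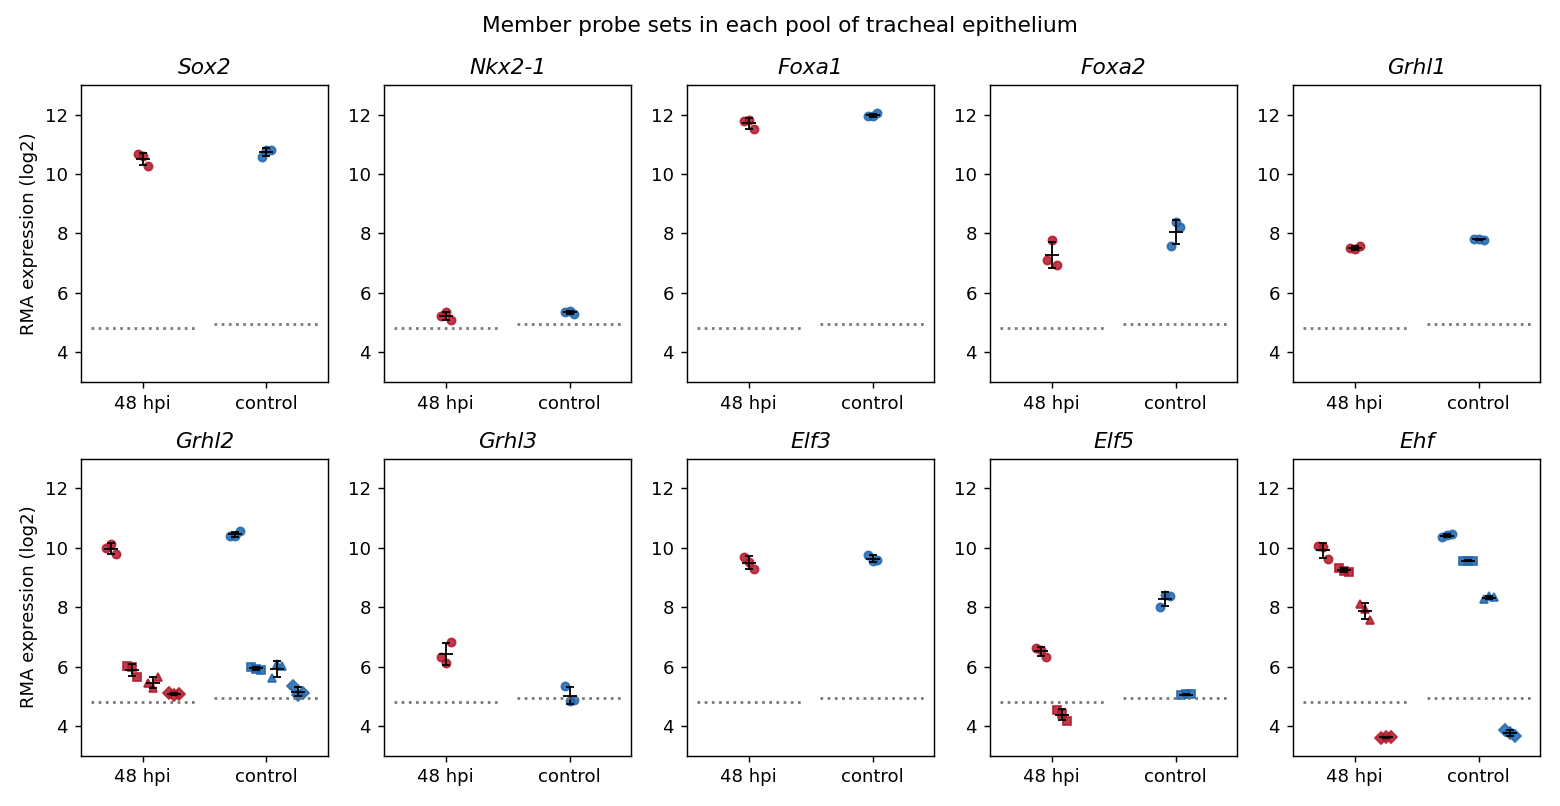
RMA expression (log2) of the 17 member probe sets in each pool of 48 hpi (red) and control (blue) tracheal epithelium. Each symbol shape is 1 probe set of the gene, black bars give the mean and SD of 3 pools, the dotted lines are background levels (4.81 at 48 hpi, 4.94 in control), and heights are not comparable between probe sets. Elf5 lies lower and Grhl3 higher at 48 hpi, without overlap.

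The array files carry no detection calls, so a background level was taken from 79 probe sets of olfactory, vomeronasal and trace amine receptors, as the 95th percentile of their group means. It was 4.81 at 48 hpi and 4.94 in control. Of the 17 member probe sets, 15 were above it in both groups, 1 in control only (the dimmer probe set of Elf5) and 1 in neither (the dimmest of Ehf). Epithelial identity of the pools was checked with 8 general epithelial markers, all above background, of which 4 were higher at 48 hpi (2 without the third control pool). Krt7 and Krt8, keratins of simple epithelium, rose by 0.95 (SE 0.10) and 0.43 (SE 0.09), Cldn7, a claudin, by 0.56 (SE 0.13) and Epcam, a surface adhesion protein, by 0.28 (SE 0.09, adjusted p = 0.0423 from limma). Correlations between arrays of a group lay between 0.99 and 0.996, and the third 48 hpi pool stood farthest from its group (0.99 and 0.992). Without it the same numbers of the 10 genes were called, 4 lower and 1 higher.

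The sequences just before the start sites of the genes that moved most, Elf5 and Grhl3, are shown with that of Foxa1, a gene of the same set that was not called, to let their makeup be compared. They are the 250 bases before each start site in RefSeq (GRCm38.p6), read in the direction of the gene, and Elf5 has 2 start sites in that table. Of the 10 genes, 8 have an entry in the table used, and Grhl2 and Ehf do not. Capitals mark the searched motifs on either strand: AACCNGTT for grainyhead factors, GGAAGT for Ets factors, TGTTTAC for forkhead factors, ACAANG for Sox factors and TCAAG for Nkx2-1.
Elf5 first start site (chr2:103411848-103412097, plus strand): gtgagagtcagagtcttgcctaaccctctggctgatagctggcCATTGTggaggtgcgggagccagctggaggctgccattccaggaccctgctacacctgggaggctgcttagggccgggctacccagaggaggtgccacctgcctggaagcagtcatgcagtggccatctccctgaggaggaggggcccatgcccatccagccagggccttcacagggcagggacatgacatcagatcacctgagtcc
Elf5 second start site (chr2:103423818-103424067, plus strand): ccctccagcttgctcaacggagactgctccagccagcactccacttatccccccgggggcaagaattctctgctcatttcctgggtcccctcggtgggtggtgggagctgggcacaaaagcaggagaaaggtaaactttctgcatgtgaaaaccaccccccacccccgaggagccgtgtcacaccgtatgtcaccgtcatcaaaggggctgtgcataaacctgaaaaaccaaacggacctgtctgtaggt
Grhl3 (chr4:135573633-135573882, minus strand): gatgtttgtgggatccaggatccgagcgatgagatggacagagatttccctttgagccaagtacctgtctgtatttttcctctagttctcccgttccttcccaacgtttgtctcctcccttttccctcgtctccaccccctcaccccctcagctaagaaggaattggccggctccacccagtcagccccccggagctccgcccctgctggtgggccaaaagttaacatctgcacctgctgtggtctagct
Foxa1 (chr12:57546112-57546361, minus strand): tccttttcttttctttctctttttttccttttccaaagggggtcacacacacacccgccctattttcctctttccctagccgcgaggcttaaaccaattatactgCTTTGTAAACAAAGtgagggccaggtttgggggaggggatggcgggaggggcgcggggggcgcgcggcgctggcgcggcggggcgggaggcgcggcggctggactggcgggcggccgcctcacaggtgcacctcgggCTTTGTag
Of the 32851 windows of this length in the table, 1.79% hold the grainyhead motif, 19.7% the Ets motif, 3.17% the forkhead motif, 36.3% the Sox motif and 35.9% the Nkx2-1 motif. The Foxa1 window holds 1 forkhead motif, which overlaps a Sox motif on each side, and another Sox motif close to the start. The first Elf5 window holds 1 Sox motif, and none of the 5 motifs occurs in the second Elf5 window or in that of Grhl3. Among the other members, the Sox2 window holds 1 Sox motif, that of Nkx2-1 holds 2 Nkx2-1 motifs, 1 of the 3 Foxa2 windows holds 2 Ets motifs and each of the others holds 1 Sox and 1 Nkx2-1 motif, 1 of the 2 Grhl1 windows holds 1 Nkx2-1 motif, and the Elf3 window holds none. The arrays do not measure binding, and these matches are descriptions of the letters only.

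Sox2 had values of 10.66, 10.60 and 10.28 in the 48 hpi pools, against 10.59, 10.80 and 10.82 in the control pools. The groups overlapped, with the first and second 48 hpi pools inside the control range and the third below it. The change was −0.22 (SE 0.13, 95% confidence interval −0.51 to 0.07, adjusted p = 0.238 from limma). Nkx2-1, on its single probe set, had values of 5.21, 5.34 and 5.08 at 48 hpi, against 5.35, 5.39 and 5.29 in control. These levels lay 0.40 above background in both groups, and the change of −0.13 (SE 0.10, 95% confidence interval −0.35 to 0.09, adjusted p = 0.377 from limma) was not called. The probe set is dim, which limits what it can show.

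Foxa1 had values of 11.78, 11.83 and 11.50 in the 48 hpi pools, against 11.94, 11.94 and 12.04 in the control pools. All 48 hpi values were below all control values, but the distance was small and the change of −0.27 (SE 0.11, 95% confidence interval −0.52 to −0.01) was not called (adjusted p = 0.111 from limma). Foxa2 varied more between pools of the same group, with 7.10, 7.79 and 6.94 at 48 hpi, against 7.58, 8.37 and 8.21 in control. The second 48 hpi pool lay above the lowest control pool. Its change of −0.77 (SE 0.26, 95% confidence interval −1.38 to −0.17) narrowly missed the test (adjusted p = 0.0598 from limma) and passed it under 7 of 19 alternatives, with adjusted p-values from 0.00973 to 0.219 over all of them. With 1 probe set per gene tested, for instance, Foxa2 was called lower (adjusted p = 0.048 from limma). Levels of different probe sets are not comparable, but a shift of their within-array difference shows unequal change. Foxa1 minus Foxa2 was 4.43 ± 0.337 at 48 hpi and 3.92 ± 0.398 in control (SD, n = 3 pools each). This balance differed by 0.51 between the groups, with overlapping pools (exact permutation test, two-sided p = 0.2, adjusted p = 0.233 over 7 pairs).

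Among the grainyhead-like genes, Grhl3 rose while Grhl1 and Grhl2 were lower, the fall of Grhl1 turning into a change of 0.07 with equal hybridization controls. Grhl3, known in mouse for its part in skin barrier formation, wound repair and neural tube closure, had values of 6.32, 6.13 and 6.84 in the 48 hpi pools, against 5.35, 4.83 and 4.87 in the control pools. Every 48 hpi pool was above every control pool, and 2 of the 3 control pools lay below the background level. The rise was 1.42 (SE 0.21, 95% confidence interval 0.94 to 1.89, adjusted p = 0.00175 from limma). Since the control mean was only 0.08 above background, the size of this rise depends on low values. The call held under all 19 alternatives, with changes from 1.21, without the third 48 hpi pool, to 1.76.

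Grhl1 had values of 7.51, 7.46 and 7.59 at 48 hpi, against 7.80, 7.81 and 7.78 in control. The pools of each group lay close together and did not overlap with the other group, and the change was −0.27 (SE 0.08, adjusted p = 0.0423 from limma). The call was lost under 9 of 19 alternatives, among them leaving out the first or second 48 hpi pool or any 1 control pool (changes from −0.28 to −0.24). Grhl2, which in mouse is needed for adherens and tight junctions of embryonic epithelia, had values of 9.98, 10.14 and 9.78 at 48 hpi, against 10.40, 10.41 and 10.55 in control, on its brightest probe set. The groups did not overlap on this probe set, and the change was −0.49 (SE 0.11, adjusted p = 0.0141 from limma). The call was lost without the third control pool (−0.44, adjusted p = 0.0557 from limma), under equal hybridization controls (−0.14) and in an unmoderated test, which takes the variance of each probe set alone.

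The other 3 probe sets of Grhl2 were dimmer, with group means between 5.07 and 5.94, and none was called. Their changes were −0.05 (SE 0.12), −0.44 (SE 0.15) and −0.09 (SE 0.10), and in each the groups overlapped. The probe set with a change of −0.44 (adjusted p = 0.0662 from limma) was called lower under 4 alternatives, and the mean of all 4 probe sets was called with a smaller change of −0.27 (adjusted p = 0.0195 from limma).

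The within-array differences between Grhl3 and its relatives were higher in the 48 hpi pools than in the control pools. Grhl3 minus Grhl2 was −3.53 ± 0.55 at 48 hpi and −5.44 ± 0.342 in control (SD, n = 3 pools each). Grhl3 minus Grhl1 was −1.09 ± 0.304 at 48 hpi and −2.78 ± 0.289 in control. The pools did not overlap in either pair (exact permutation test, two-sided p = 0.1, adjusted p = 0.14 over 7 pairs). These shifts of 1.90 and 1.69 stay the same when a whole array is shifted. The balance of Grhl1 and Grhl2 differed by 0.22, with overlapping pools (exact permutation p = 0.3).

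**Figure D2:**
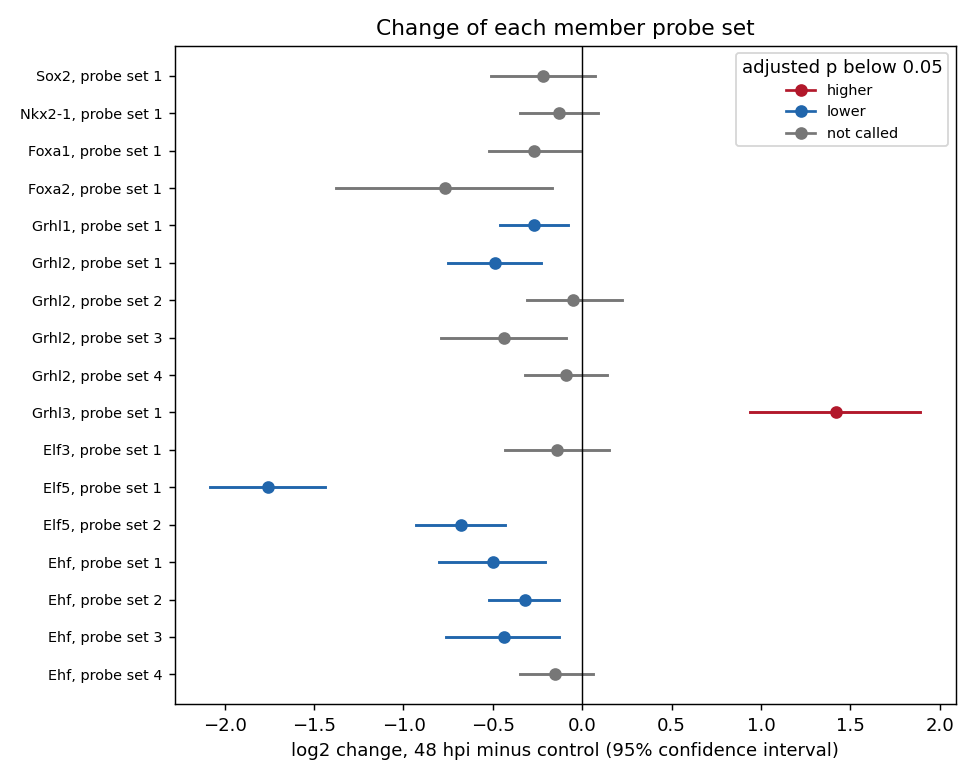
Log2 change, 48 hpi minus control, of each member probe set with its 95% confidence interval from limma (3 pools against 3). Probe sets of a gene are numbered from the brightest down, and colors mark calls at an adjusted p below 0.05. Grhl3 (1.42) is the probe set called higher, and Elf5 (−1.76) has the most negative change. The call of Grhl1 turns into a change of 0.07, and that of the second Ehf probe set into 0.02, with equal hybridization controls.

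The 3 epithelial Ets factors did not move alike. Elf3, which in human airway cells responds to inflammatory signals, had values of 9.70, 9.51 and 9.27 in the 48 hpi pools, against 9.76, 9.55 and 9.60 in the control pools. These overlapped, and the change was −0.14 (SE 0.13, 95% confidence interval −0.43 to 0.15, adjusted p = 0.463 from limma). Elf5, best known as a regulator of the mammary alveolar lineage and of trophoblast in mouse, had values of 6.64, 6.56 and 6.33 at 48 hpi, against 8.01, 8.41 and 8.39 in control. The highest 48 hpi pool lay well below the lowest control pool. The change was −1.76 (SE 0.14, 95% confidence interval −2.08 to −1.44, adjusted p = 0.000117 from limma), and the call held under all 19 alternatives, with changes from −1.89, without the first control pool, to −1.22, for the mean of both probe sets.

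The dimmer probe set of Elf5 had values of 4.54, 4.41 and 4.18 at 48 hpi, against 5.05, 5.06 and 5.06 in control. It moved in the same direction by −0.68 (SE 0.11, adjusted p = 0.00247 from limma), but its 48 hpi level was below background, which limits the size of the fall, and its call was lost under equal hybridization controls (−0.34). Both probe sets of Elf5 thus gave lower values at 48 hpi in every pool.

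Ehf, also called Ese3 in human, is an Ets factor of differentiated epithelia. Its brightest probe set had values of 10.06, 10.04 and 9.63 at 48 hpi, against 10.35, 10.42 and 10.47 in control. The groups did not overlap, and the change was −0.50 (SE 0.13, adjusted p = 0.0201 from limma). The next 2 probe sets were also called, with −0.32 (SE 0.08), which became 0.02 with equal hybridization controls, and −0.44 (SE 0.14), whose call was lost under 9 alternatives. The dimmest, within background, had a change of −0.15 (SE 0.09). The call of the brightest probe set was lost without the second control pool (−0.50, adjusted p = 0.0652 from limma), without the third control pool (−0.48, adjusted p = 0.0701 from limma), under equal hybridization controls (−0.16) and in the unmoderated test.

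Within each array, Elf5 minus Ehf was −3.40 ± 0.0901 at 48 hpi and −2.14 ± 0.171 in control (SD, n = 3 pools each). Elf5 minus Elf3 was −2.98 ± 0.0732 at 48 hpi and −1.36 ± 0.333 in control, and Elf3 minus Ehf was −0.42 ± 0.0969 at 48 hpi and −0.78 ± 0.164 in control. The pools did not overlap in any of these 3 pairs (exact permutation test, two-sided p = 0.1, adjusted p = 0.14 over 7 pairs). The change of Elf5 thus differed by −1.26 from that of Ehf and by −1.62 from that of Elf3.

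**Figure D3:**
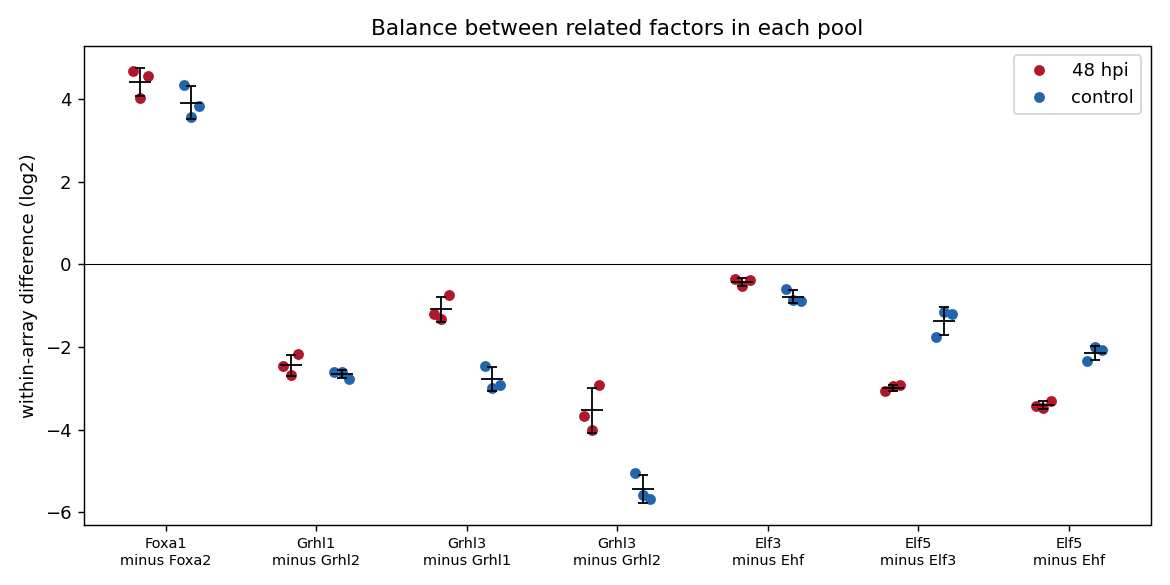
Within-array difference (log2) between the brightest probe sets of related factors, in each pool of 48 hpi (red) and control (blue) epithelium, with the mean and SD of 3 pools as black bars. A shift between the groups shows unequal change of the 2 genes, and the position on the axis does not compare their levels. Pools do not overlap for 5 of the 7 pairs, those with Grhl3, those with Elf5, and Elf3 with Ehf.

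Ehf and Elf5 are direct neighbors on mouse chromosome 2, between Apip and Cat. Apip, an enzyme of methionine salvage, was higher at 48 hpi by 0.26 (SE 0.08, adjusted p = 0.0436 from limma). Cat, which encodes catalase, was lower (−0.90, SE 0.18, adjusted p = 0.00632 from limma), with 8.96 ± 0.385 at 48 hpi and 9.87 ± 0.0179 in control (SD, n = 3 pools each). The 2 Ets genes and Cat thus had lower values at 48 hpi, whereas Apip on the other side of Ehf did not. The neighbors of Grhl3, Stpg1 and Ifnlr1, had changes of 0.05 (SE 0.09) and −0.09 (SE 0.10), and neither was called. Of 16 measured direct neighbors of the members, 1 was higher (Apip), 10 were not called and 5 were lower, beside 18.4% of all genes higher and 16.1% lower. The 5 were Cat, Klf11 beside Grhl1 (−0.61, SE 0.13), Ncald beside Grhl2 (−0.44, SE 0.10), Ttc6 beside Foxa1 (−0.70, SE 0.15) and Pax1 beside Foxa2 (−0.46, SE 0.15). Pax1 was within background at 48 hpi (4.67), with adjusted p = 0.0489 from limma. The calls of these neighbors were not checked under the alternatives, and an effect of position was not tested.

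Relatives of these factors outside the set were counted by the brightest probe set of each gene, beside 16.1% of all genes lower and 18.4% higher. Of 15 other forkhead genes 7 were lower and 1 was higher (median change −0.38). Foxa3, the remaining FoxA gene, had 4.43 ± 0.116 at 48 hpi, which is within background, and 5.55 ± 0.226 in control (SD, n = 3 pools each), a change of −1.12 (SE 0.13). Foxo3 (−0.77, SE 0.11) and Foxo1 (−0.63, SE 0.10), which restrain growth downstream of insulin signals, and Foxp2, a repressor in the developing airway (−0.84, SE 0.13), were also lower. The count of lower forkhead genes was 2 under equal hybridization controls. Of 15 Sox and NK2 relatives 2 were lower, Sox4 (−0.51, SE 0.12) and Sox5 (−0.37, SE 0.10), and Sox15, a factor of stratified epithelia, was higher (0.46, SE 0.10). Under equal hybridization controls the changes of Sox4 and Sox5 were −0.17 and −0.02 and were not called, and Sox4 and Sox5 both lost the call without the first 48 hpi pool.

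In the CP2 branch of the grainyhead family, 2 of 3 genes were lower, Tfcp2l1, a factor of ducts and of pluripotent cells (−1.05, SE 0.19), and Tfcp2 (−0.30, SE 0.09), which changed by 0.04 with equal hybridization controls. The count was 1 under most alternatives, each left-out pool included. Tfcp2l1 had 6.12 ± 0.359 at 48 hpi and 7.17 ± 0.237 in control (SD, n = 3 pools each). Of 18 other Ets genes 4 were higher and 3 were lower, with a median change of −0.06. Etv4 and Etv5, which act downstream of FGF receptors, rose by 1.02 (SE 0.13) and 1.06 (SE 0.21), and the control level of Etv5 was within background. No other probe set of either gene was called higher. Elk3, a partner of serum response factor, rose by 1.29 (SE 0.21), and Ets1 was lower (−0.85, SE 0.11). Without the second control pool 1 of the 18 was called lower, and in the unmoderated test 1 was called higher. Of 17 regulators of epithelial state and of its loss, 15 were not called, Esrp2, a splicing factor of epithelia, was higher (0.45, SE 0.10) and Klf5 was lower (−0.43, SE 0.13). Klf5 changed by −0.09 with equal hybridization controls and lost the call there, with a common median, and after leaving out the first 48 hpi, the third 48 hpi, the second control or the third control pool. Of 6 measured transcription factors of ciliated cells, Myb was higher (1.19, SE 0.22). Neither Esrp2, Klf5 nor Myb was called in the unmoderated test.

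Genes known as targets of these factors were counted in the same way. The lists do not separate genes that a factor activates from genes that it represses, so the counts do not measure the activity of a factor. Of 21 grainyhead target genes, 6 were higher and 4 were lower (median change −0.06). Tgm1, a transglutaminase of the cornified envelope and a target of Grhl3 in mouse skin, rose by 2.00 (SE 0.23), with 8.26 ± 0.447 at 48 hpi and 6.26 ± 0.283 in control (SD, n = 3 pools each). Mal2, of apical transport, rose by 0.67 (SE 0.10), and St14, the membrane protease matriptase, by 0.59 (SE 0.10). Tmem30b, a subunit of lipid flippases, was lower (−0.66, SE 0.13), and so was Spint2, an inhibitor of serine proteases such as matriptase (−0.51, SE 0.12). With equal hybridization controls the 4 genes called lower lost their call, and in the unmoderated test 1 of the 21 was called lower.

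Of 16 target genes of Nkx2-1 and FoxA, 11 were lower and the median change was −0.65. The surfactant protein genes Sftpa1, Sftpd and Sftpc changed by −4.76 (SE 0.62), −2.01 (SE 0.25) and −1.10 (SE 0.19), with Sftpc within background at 48 hpi, and Abca3, a lipid transporter, by −0.77 (SE 0.11). The count was 6 without the second control pool, 7 when the third was left out, 6 under equal hybridization controls and 3 in the unmoderated test. Of 12 secretory cell markers, 8 were lower (4 without the second and 5 without the third control pool, and 1 in the unmoderated test). The lists overlap, and 4 of these 8, Scgb3a1, Scgb3a2, Cyp2f2 and Muc5b, are among the 11 target genes, while Foxa3 and Spdef are also counted with the forkhead and Ets genes. Of 11 measured target genes of Elf3, Elf5 and Ehf, 4 were higher and 2 were lower. Sprr1a, of the cornified envelope, rose by 3.52 (SE 0.32) and Krt4 by 0.54 (SE 0.10), while Ccl20, a chemokine (−1.60, SE 0.17), and Tgfbr2, a receptor of TGF-beta (−0.46, SE 0.08), were lower. Krt8 and Cldn7, given above as epithelial markers, are the other 2 higher genes of this list. The count of lower genes was 1 under equal hybridization controls and for the mean of probe sets.

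**Figure D4:**
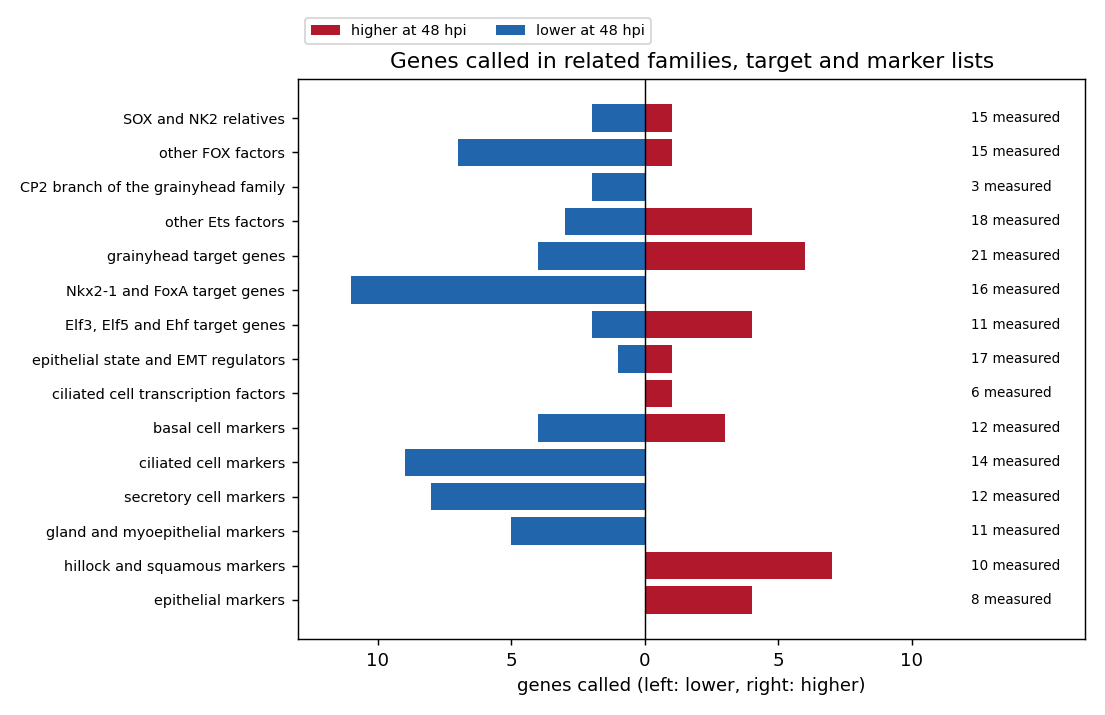
Number of genes called higher (right, red) or lower (left, blue) at 48 hpi in related families, target genes and epithelial marker lists, by the brightest probe set of each gene (limma, adjusted p below 0.05). The text at the right gives how many genes were measured. Nkx2-1 and FoxA target genes have 11 of 16 lower, and hillock and squamous markers 7 of 10 higher, beside 16.1% lower and 18.4% higher of all genes. In the unmoderated test each of these 2 counts was 3.

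Markers of epithelial cell types moved in the same pools, and in bulk RNA fewer cells of a type and less RNA per cell cannot be told apart. Of 14 ciliated cell markers 9 were lower, and the sum of their signals ranged from 11.3 to 11.6 (log2) in the 48 hpi pools and from 11.7 to 12.5 in the control pools. The sums of the 12 secretory cell markers ranged from 15.9 to 16.6 at 48 hpi and were 17.1 in each control pool. The brightest of them, such as Scgb1a1 and Bpifa1 (14.5 each in control, not called), lay close to the highest value of all arrays (14.6). This limits what their levels and the sum can show. Of 12 basal cell markers 3 were higher, Krt14 (3.18, SE 0.34), Itga6 (0.80, SE 0.12) and Krt5 (0.69, SE 0.11), and 4 were lower. The 4 were Dapl1 (−0.95, SE 0.20), Ngfr (−0.66, SE 0.14), Cd44 (−0.45, SE 0.09) and Pdpn (−0.35, SE 0.10), and all 4 lost that call under equal hybridization controls. The sums of the basal list ranged from 14.6 to 14.7 at 48 hpi and from 14.4 to 14.5 in control. Of 10 markers of hillock and squamous cells 7 were higher, led by Cnfn (2.97, SE 0.32) and Krt6a (2.77, SE 0.32), with sums from 13.2 to 13.6 at 48 hpi and from 12.1 to 12.6 in control. Of 11 gland and myoepithelial markers 5 were lower (3 without the second 48 hpi or the second control pool), among them Dmbt1 (−3.68, SE 0.71) and Bpifb1 (−2.05, SE 0.38), with sums from 13.2 to 14.5 at 48 hpi and 15.5 in each control pool. All 15 measured cell cycle genes were higher (median change 3.35). In the unmoderated test the basal list had 1 lower gene and the gland list lost its 5 calls. The ciliated list then had 5 lower genes, and the hillock and squamous list had 3 higher genes. The part of these shifts in the changes of Elf5, Grhl3 and the other members was not tested.

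Some markers of cells outside the epithelium were measured above background, and the summed levels of the leukocyte and of the fibroblast and cartilage lists, which are carried by Lyz2 and by Chad and Dcn, lay lower in all 48 hpi pools than in the control pools. The median changes of these lists were −0.08 and 0.07. Of 14 leukocyte markers 2 were lower, Lyz2 (−3.14, SE 0.79) and Csf1r (−0.84, SE 0.15), and 1 when any single control pool was left out, while 5 were above background in at least 1 group. Ptprc, which encodes CD45, was within background in both groups. The leukocyte sum ranged from 10.8 to 12.8 at 48 hpi and from 13.8 to 14.1 in control. Of 12 fibroblast and cartilage markers 2 were lower, Chad (−2.68, SE 0.42) and Dcn (−1.85, SE 0.38), with sums from 9.26 to 10.7 at 48 hpi and from 12 to 12.5 in control. Only 5 of these 12 were above background in at least 1 group. Which cells the signals of Lyz2, Chad and Dcn came from was not tested. Col3a1 (1.04, SE 0.47), Col1a2 (0.58, SE 0.31) and Col1a1 (0.44, SE 0.22), collagens of fibroblasts, were not called, and the count of higher genes in this list was 2 without the first 48 hpi pool and 4 with equal hybridization controls. Of 8 endothelial markers 1 was above background, with sums from 6.87 to 6.95 at 48 hpi and from 6.9 to 7.15 in control. The lower calls of the leukocyte and fibroblast lists were lost in the unmoderated test. Whether these shifts bear on the member genes was not tested.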

How the data were processed

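RNA from 3 pools of 48 hpi and 3 pools of control tracheal epithelium was analysed, 1 Affymetrix mouse array per pool. The authors deposited log2 values after RMA normalization in Partek 6.5; the submitters' processing notes also name Affymetrix Expression Console 1.1. RMA makes the array distributions alike, so a change in total RNA per cell is not kept. The values range from 2.01 to 14.6. Array medians were 4.88, 4.89 and 4.91 at 48 hpi and 4.98, 4.98 and 4.99 in control, so they lay lower in every 48 hpi array. Of 45101 probe sets, 64 controls were left out. Symbols come from the array annotation (34945 probe sets with 1 symbol, 932 with several and 9160 with none).

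All 45037 probe sets were fitted together with limma 3.58.1 in R 4.3.3 (lmFit, eBayes) without covariates, and p-values were adjusted by the Benjamini-Hochberg method. For gene lists, each gene was represented by its brightest probe set over all arrays. Of the list genes named as called, Epcam, Tfcp2l1, Etv4, Etv5, Klf5, Sftpc, Tgfbr2, Ngfr, Csf1r and Dcn have further probe sets. None of these was called in the same direction. The members and lists were chosen with earlier results of these data known. Named are all members and, per list, every called gene in lists of 8 or fewer measured genes and otherwise genes among the 4 called with the smallest p. Chromosomal neighbors, Ptprc, the collagen genes, Tmem30b, Spint2, the genes shared between lists, and Krt8 and Cldn7 in a list of targets were added after their values were seen, and 1 grainyhead target that the rule names is not reported here. Related factors were compared by exact permutation of within-array differences. The fit was tested on simulated data with independent noise for each value, so effects shared by a whole array were not covered. The study's own array test covered injury and tissue together, and was not run, since mesenchyme was not analysed here. The 19 alternatives concerned the test (among them an unmoderated one with equal variances for each probe set alone), scaling, probe set choice, the replicate number as a block and single pools. Scan dates and slides were not given in the sources used here. The labels call the pools biological repeats, and 3 per group limit the precision.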

Additional observations from a re-analysis of the deposited data

How the results depend on the processing

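Grhl3 was called higher and the brightest probe set of Elf5 lower under all 19 alternatives. Of 17 member probe sets 7 were called lower, and this count was 4 with an unmoderated test per probe set, 4 with a common median, 1 with equal hybridization controls and 2 at an adjusted p below 0.01, and leaving out 1 pool gave 2 to 7, with 3 without the second and 2 without the third control pool. Of the 10 genes 4 were called lower, and this count was 2 with the unmoderated test, 1 with equal hybridization controls and 1 at an adjusted p below 0.01, and leaving out 1 pool gave 1 to 4, with 2 without the second and 1 without the third control pool. Leaving out a pool leaves fewer arrays, and the cause of the other moves was not tested. Under these settings the share of all probe sets called lower fell too, from 13.9% in the main fit. It was 6.55% in the unmoderated test and 6.6% at an adjusted p below 0.01. Scaling to equal array medians gave 10%, and scaling to the hybridization controls gave 3.29%. Without the second control pool the share was 8.99%, and without the third it was 9.35%. With equal hybridization controls, which moved the median of all probe sets to 0.32, the sign turned for Sox2 (0.12), Nkx2-1 (0.21), Foxa1 (0.08), Grhl1 (0.07), the next-brightest and the dimmest probe set of Grhl2 (0.30 and 0.25), Elf3 (0.20) and the next-brightest and the dimmest of Ehf (0.02 and 0.19), all below that median. The next-brightest probe set of Grhl2 also turned with a common median (0.03), with array weights (0.03) and without the third 48 hpi pool (−0.11 to 0.07 over the left-out pools). The differences between related factors kept their direction in all 56 alternative values. This count is no independent check. Scalings that move a whole array by 1 constant cancel in a within-array difference, so the values under them could not turn. Values after leaving out 1 pool reuse the remaining arrays. With the replicate number as a block, 8 member probe sets were called lower and 1 higher, and over all probe sets 7019 lower and 6533 higher. The deviations of same-numbered pools correlated by 0.20, 0.08 and 0.19, and every pool correlated best with its own number, a hint from the data and not from the design. Foxa2 was called lower and Grhl1 was not in the fit with this block (adjusted p = 0.00973 and 0.0751 from limma). Among the gene lists, the counts of lower genes that moved by over 1.5 times with equal hybridization controls were 2 instead of 7 for forkhead genes, 0 instead of 2 for Sox and NK2 relatives, 1 instead of 2 for the CP2 branch, 1 instead of 3 for other Ets genes, 0 instead of 4 for grainyhead targets, 6 instead of 11 for Nkx2-1 and FoxA targets, 1 instead of 2 for Elf3, Elf5 and Ehf targets, 0 instead of 1 for epithelial state regulators, 0 instead of 4 for basal and 1 instead of 2 for leukocyte markers. Higher genes were then 4 instead of 0 for fibroblast and cartilage, 1 instead of 0 for gland and for leukocyte markers, and 2 instead of 1 for epithelial state regulators. With the unmoderated test, lower genes were 0 instead of 2 for Sox and NK2 relatives, the CP2 branch, leukocyte and fibroblast markers, 0 instead of 5 for gland markers, 0 instead of 1 for epithelial state regulators, 1 instead of 4 for grainyhead targets and basal markers, 3 instead of 11 for Nkx2-1 and FoxA targets, 1 instead of 8 for secretory and 5 instead of 9 for ciliated cell markers. Higher genes were 1 instead of 4 for other Ets genes, 3 instead of 7 for hillock and squamous markers, and 0 instead of 1 for epithelial state regulators and for ciliated cell transcription factors. Background correction was not varied, since probe-level intensities were not used here. Probe sets near background, among them those of Nkx2-1 and Grhl3 in control, limit what can be said of the size of their changes.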
